A study of Homo sapiens with 10 samples.

Results

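The KRAB zinc finger gene clusters of chromosome 19 held 229 accessible regions, of 35505 in the whole series, and were examined here in leukemia cells with and without SLFN11 under replication stress. Members were all regions in 5 windows of hg19: chr19:19800000-24300000 (cluster 1, 48 regions), chr19:36600000-38300000 (cluster 2, 45 regions), chr19:44300000-45000000 (cluster 3, 19 regions), chr19:52300000-54000000 (cluster 4, 42 regions) and chr19:56500000-59100000 (cluster 5, 75 regions). The windows are fixed positions, and the rule itself uses no measured value. No region crossed a window edge. The regions next to the 10 window edges were called in a median of 10 lists on the inner side and 7.5 lists on the outer side. The comparison set was the other 1433 regions of chromosome 19, called the rest of the chromosome.

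The assay was ATAC-seq: a transposase cuts open chromatin and leaves sequencing adapters there. The cells were CCRF-CEM, a human T lymphoblast line from a leukemia, as the wild-type parental line, which expresses SLFN11, and as a SLFN11 knockout derived from it. SLFN11 is a protein recruited to stalled replication forks. Each line received DMSO, 100 nM prexasertib (an inhibitor of the checkpoint kinase CHK1) for 2, 4 or 6 h, or 100 nM camptothecin (which traps topoisomerase I on DNA) for 4 h. The labels do not say whether the knockout is 1 clone or how long DMSO was given. There were 10 groups with 1 library and 1 deposited peak list each, so no difference could be set against a spread between replicates and no test was run. Intervals are at 95% confidence and cover counting error over regions only, and regions are not replicates of a condition. According to the series record, raw reads for parental cells at 4 h of prexasertib are truncated, and the peak list deposited for them was used as it is. No hg19 annotation was used here, so no region was assigned to a gene, and the markers of the labelled cell type and the SLFN11 locus were not examined.

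KRAB zinc finger genes arose by repeated tandem duplication and form the largest family of human transcription factors. The zinc fingers of each protein read a DNA sequence, often one within a transposable element, and the KRAB domain recruits TRIM28, which brings the histone methyltransferase SETDB1 and a silent chromatin state marked by H3K9 methylation. The gene clusters are themselves known for such silent chromatin over the exons that code for the zinc fingers, while many of the promoters between them stay active. Members of the family near the centromere of chromosome 19, ZNF91 among them, are known for their expression in T lymphoid cells.

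Of the 1451 protein-coding genes that the RefSeq table of GRCh38.p14 places on chromosome 19, 270 have zinc finger symbols, against 614 of 20052 in the genome. Some of these promoters share sequence, which is shown here because the regions measured lie where such genes are dense. The 10-base motif TCCAATCAGG, the most frequent word around a CCAAT box among zinc finger genes of the chromosome, was searched on both strands of the 250 bases before each start. It was present in 43 of the 233 zinc finger genes of the chromosome with a promoter in the table (18.5%, exact interval 13.7% to 24.0%), the count by which it was chosen. Among other genes of the chromosome 1 of 952 held it (0.105%). It was found in 17 of 283 zinc finger genes elsewhere (6.01%) and in 87 of all 15842 genes (0.549%). Of 15 zinc finger genes listed for this report, 13 had a promoter and 4 of those held the motif. In these 60-base windows, 5′ to 3′ on the strand of the gene, capitals mark the motif:
ZNF91: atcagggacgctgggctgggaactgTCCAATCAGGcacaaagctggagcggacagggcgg
ZNF93: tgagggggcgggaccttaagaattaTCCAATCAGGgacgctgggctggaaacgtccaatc
ZNF43: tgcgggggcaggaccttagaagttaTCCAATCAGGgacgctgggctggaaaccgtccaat
ZNF675: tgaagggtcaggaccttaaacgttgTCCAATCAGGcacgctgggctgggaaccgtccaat

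The motif lay 49 bases before the start in ZNF91, 75 in ZNF93, 78 in ZNF43 and 43 in ZNF675. ZNF91 and ZNF93 encode repressors known to bind retrotransposons. The shorter CCAAT, which also lies inside the 10-base motif, was found before 55.4% of the zinc finger genes of the chromosome, 40.3% of its other genes and 40.2% of all genes. CCGGAAG, a core recognised by ETS factors, was in 33.5%, 13.7% and 14.0% of the same sets, and in 31.4% of zinc finger genes elsewhere. These sequences come from another build than the peaks. A match describes the letters in the window and no binding was measured.

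Merged regions in the clusters were fewer per megabase than in the rest of the chromosome, and a larger share of them was called throughout the study. The windows held 20.4 regions per Mb over 11.2 Mb, against 29.9 in the rest of the chromosome, taken from its first to its last region with the centromere included. Regions called in all 10 lists stood at 13.0 per Mb in the clusters and 12.5 in the rest. The 5 windows were not alike. Cluster 1, next to the centromere, had 10.7 regions per Mb, while the others had 26.5, 27.1, 24.7 and 28.8. Counted list by list, the clusters together were below the rest in 9 of 10 lists, the exception being parental 2 h prexasertib (15.7 against 14.5 called regions per Mb). Cluster 1 was below the rest in all 10 lists, and clusters 4 and 5 were above it in all 10. The median gap between neighbouring regions was 59.2 kb in cluster 1 and 35.6, 27.7, 32.8 and 20.6 kb in clusters 2 to 5. The longest stretch without any region was chr19:22035248-22816874 in cluster 1 (781.6 kb), followed by chr19:57107086-57702745 in cluster 5 (595.7 kb).

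All 10 lists called 146 of the 229 cluster regions (63.8%, exact interval 57.2% to 70.0%) and 596 of the 1433 others (41.6%, 39.0% to 44.2%), a difference of 22.2 percentage points (15.3 to 28.6). Over the whole series the share was 32.7%. Without the parental 4 h prexasertib list, 147 cluster regions (64.2%) and 601 others (41.9%) were called in every remaining list. At the other end, 15 cluster regions (6.55%) and 277 others (19.3%) were called in a single list. Of those, 5 in the clusters and 109 in the rest came from the parental 6 h prexasertib list. By window, regions called in all lists made up 35 of 48 in cluster 1 (72.9%), 27 of 45 in cluster 2 (60%), 7 of 19 in cluster 3 (36.8%), 29 of 42 in cluster 4 (69.0%) and 48 of 75 in cluster 5 (64.0%). Cluster 1 was thus the sparsest window and the one with the highest share called throughout.

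**Figure D1:**
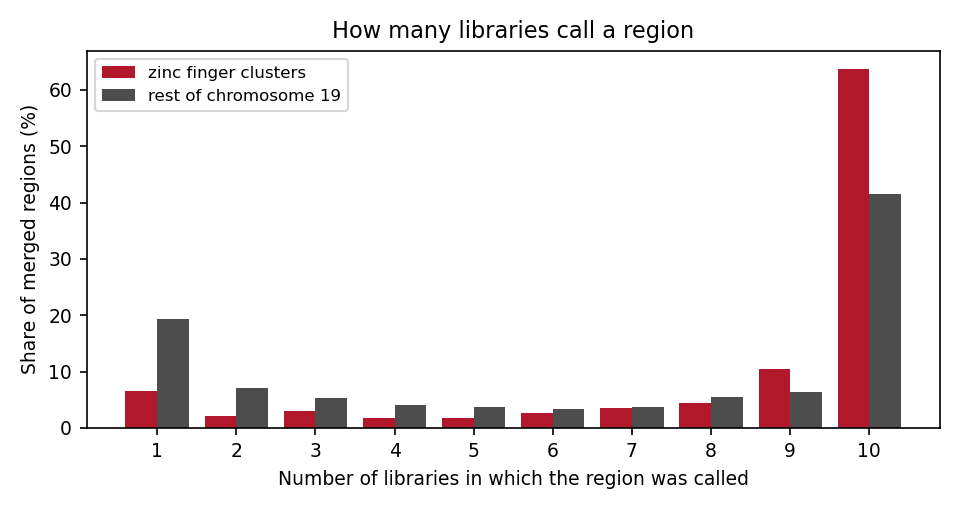
Share of merged regions (y axis, percent) by the number of the 10 peak lists that called them (x axis), for the zinc finger clusters (229 regions) and the rest of chromosome 19 (1433 regions). In the clusters 63.8% of regions were called in all 10 lists and 6.55% in 1 list, against 41.6% and 19.3% in the rest.

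The 5 parental lists shared 149 cluster regions (65.1%, against 33.8% in the whole series) and the 5 knockout lists 174 (76.0%, against 42.2%). Absent from every knockout list were 12 regions (5.24%, against 14.0% in the whole series) and absent from every parental list were 8 (3.49%, against 19.9%). No cluster region was called throughout one genotype and absent from the other, a pattern that was rare in the whole series as well (0.0056% for parental cells and 0.36% for the knockout). Both untreated lists called 156 regions, the knockout one alone called 33, the parental one alone called 6, and 34 were in neither. Of the 195 regions in either untreated list, the knockout one alone called 16.9% and the parental one alone 3.08%. In the whole series these shares were 26.7% and 6.84%.

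The parental DMSO list stood apart from the others in the clusters. Of the 24 cluster regions missing from 1 list only, 15 were missing there (6.55% of the 229, exact interval 3.71% to 10.6%). Of the rest of the chromosome 30 regions (2.09%) had the same pattern, and of the whole series 647 (1.82%). These 15 regions, chosen for this pattern after the calls were seen, lay in clusters 1 (2), 2 (2), 4 (5) and 5 (6). The highest of them in the parental 4 h camptothecin list was chr19:58192965-58193927. The stacked fragments at its summit, as a multiple of the genome-wide background of each library, numbered 13.5, 20.4 and 36.1 over the parental prexasertib course and 32.5 with camptothecin, and 15.1 in untreated knockout cells. Because each parental comparison with DMSO rests on that list, the main results are also given against the parental 2 h prexasertib list.

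The share of cluster regions called exceeded that of the rest of the chromosome in each of the 10 lists. In parental cells 162 of 229 (70.7%) were called with DMSO, 176 (76.9%), 198 (86.5%) and 216 (94.3%) over the prexasertib course, and 203 (88.6%) with camptothecin. In the rest of the chromosome the shares were 49.8%, 48.4%, 61.8%, 82.2% and 72.1%, and in the whole series 44.2%, 43.5%, 49.5%, 64.3% and 60.4%. Clusters exceeded the rest by 21.0 (14.3 to 27.1), 28.4 (22 to 34.1), 24.7 (19.1 to 29.3), 12.1 (7.9 to 15.2) and 16.6 (11.3 to 20.8) percentage points. The parental difference was smallest at 6 h, where the share was highest in both areas.

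In knockout cells the lists called 189 cluster regions (82.5%) with DMSO, 199 (86.9%), 196 (85.6%) and 206 (90.0%) over the prexasertib course, and 185 (80.8%) with camptothecin. The rest of the chromosome stood at 62.5%, 71.5%, 68.9%, 70.7% and 59.5%, and the whole series at 56.2%, 67.0%, 59.6%, 64.7% and 52.4%. The differences were 20.0 (14.0 to 25.1), 15.4 (10.0 to 19.9), 16.7 (11.1 to 21.4), 19.3 (14.1 to 23.3) and 21.3 (15.1 to 26.5) points. With only peaks of a −log10 q of at least 10, which left 196 cluster regions and 907 others, the difference lay between 2.91 points (parental DMSO) and 13.7 points (parental 4 h prexasertib). Its interval then reached below 0 with DMSO in both genotypes and in the knockout at 2 h.

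**Figure D2:**
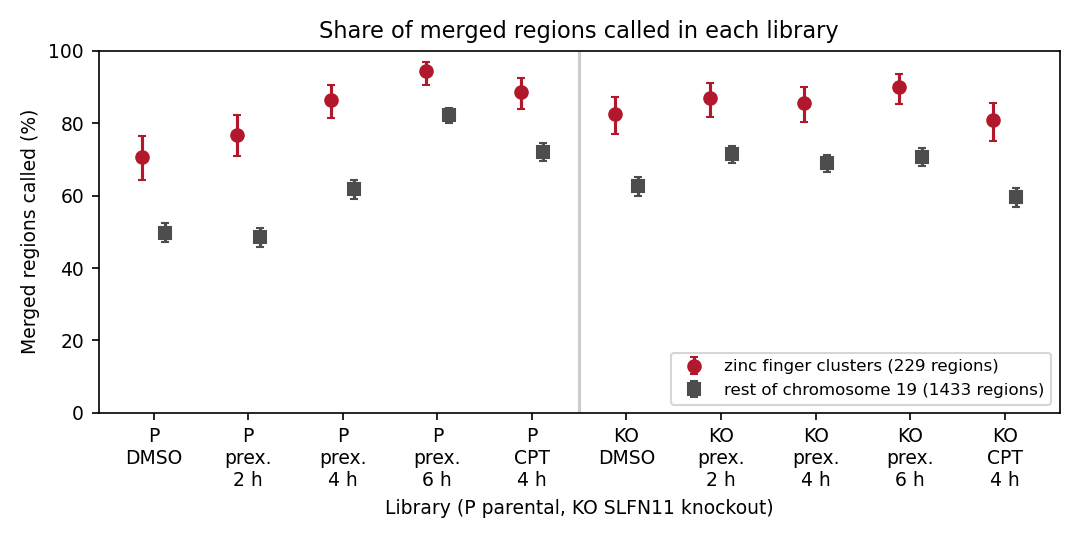
Share of regions called (y axis, percent) in each of the 10 libraries (x axis) for the zinc finger clusters and the rest of chromosome 19, with exact 95% intervals over regions. In each library the clusters lie above the rest, from 70.7% against 49.8% with parental DMSO to 94.3% against 82.2% after 6 h of prexasertib.

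Summits in the clusters were lower than in the rest of the chromosome, on a background that was lower still. Height here is the number of stacked fragments at the summit, recovered from the deposited fold and p-value, divided by the genome-wide background of the same library. It was compared only where all 10 lists called the region and each summit was recovered, which held for 146 regions in the clusters and 594 in the rest. The 83 cluster regions outside this set were left out of the main height comparisons. Heights are given for some of them that were named by their calls or width. With parental DMSO the median height was 14.7 in the clusters and 19 in the rest, and with knockout DMSO 20.7 and 27.6. Across the 10 libraries the clusters stood at between 0.702 and 0.780 times the height of the rest.

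The local background was lower in the clusters by a wider margin than height. It was 1.66 times the genome-wide value with parental DMSO and 2.15 times with knockout DMSO, against 2.68 and 3.4 in the rest. Over that local background, as in the deposited fold, the order of clusters and rest was reversed in all 10 libraries. The median deposited fold with parental DMSO was 6.66 in the clusters and 5.81 in the rest, and with knockout DMSO 7.52 and 6.86. Which area has the stronger summits thus depended on the background used.

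The highest region of each window shows the range of levels. In cluster 5, chr19:56651887-56652848 reached heights of 42.2 with DMSO, 53.5, 75.5 and 96.4 over the prexasertib course and 67.1 with camptothecin in parental cells. In knockout cells the same region was at 50.2, 59.1, 76.7, 62.2 and 59.2. In cluster 4, chr19:52692851-52693813 went from 38 with parental DMSO through 50.1 and 70.9 to 107.6 at 6 h, with 69.2 after camptothecin. Its 5 knockout values lay between 46.4 and 57.2, above the parental DMSO value and below the parental values at 4 h, 6 h and with camptothecin.

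The leading region of cluster 2, chr19:36605579-36606725 at the left edge of its window, was at 39.8 with parental DMSO and 87.2 at 6 h. In cluster 1, chr19:19886973-19887821 stood at 27.5 with DMSO, 19.6 at 2 h, 34.0 at 4 h, 47.2 at 6 h and 55.3 with camptothecin in parental cells, so that camptothecin gave its highest value. Cluster 3 led with chr19:44915237-44915801, at 30.6 with parental DMSO, 49.9 at 6 h and 36.0 with camptothecin, and between 24.7 and 27.1 in the knockout. Of these 5 regions it had the smallest parental increase at 6 h.

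**Figure D3:**
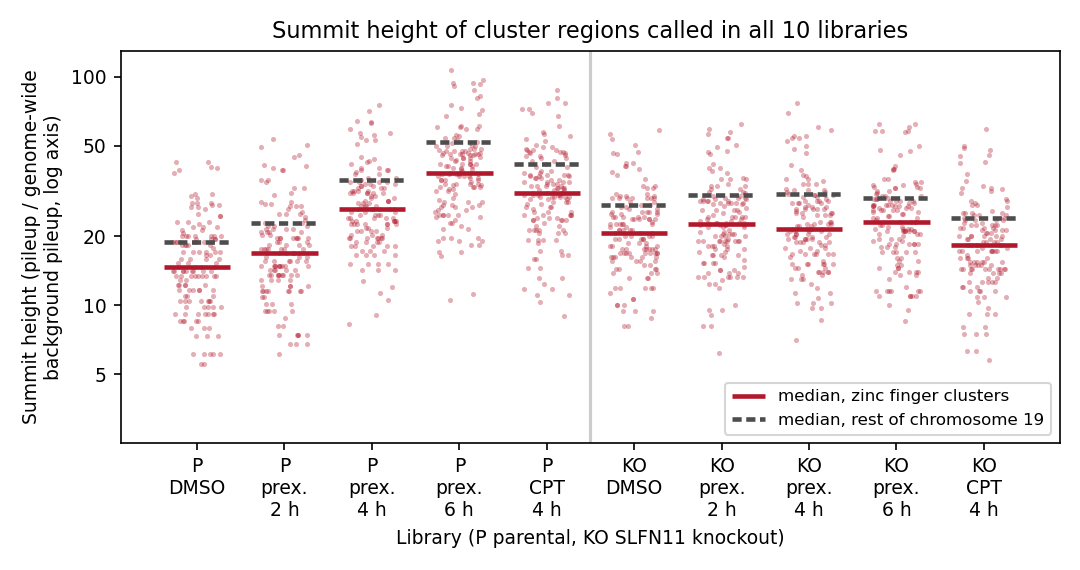
Summit height (y axis, log scale, recovered pileup over the genome-wide background) of each of the 146 cluster regions called in all 10 lists, by library (x axis, P parental, KO knockout). Points are cluster regions, solid bars their medians and dashed bars the medians of the rest of chromosome 19. The parental median goes from 14.7 with DMSO to 38 after 6 h of prexasertib, while the knockout medians lie between 18.4 and 23.1.

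Cluster regions were higher with treatment in parental cells and lay near their DMSO height in the knockout. The parental median height was 14.7 with DMSO, 16.9 at 2 h, 26.4 at 4 h, 38 at 6 h and 31.1 with camptothecin. As the median log2 change over regions this was 0.23 (0.15 to 0.28), 0.80 (0.73 to 0.87), 1.32 (1.26 to 1.39) and 1.01 (0.90 to 1.11), against 0.15, 0.62, 1.05 and 0.85 over all regions compared in the series. After 6 h and after camptothecin 146 of 146 regions were above their DMSO height, where 93.8% and 95.3% of those in the whole series were. After 2 h 104 regions were above it (71.2%, against 67.6% in the whole series) and after 4 h 143 (97.9%, against 91.9%).

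A height at least 2-fold above DMSO was seen in 1 region at 2 h (background 0.813% in the whole series), 46 at 4 h (31.5%, background 16.6%), 119 at 6 h (81.5%, background 53.8%) and 75 with camptothecin (51.4%, background 36%). The cluster share was above that background at 4 h, 6 h and with camptothecin. It was not above the rest of the chromosome, where 189 (31.8%), 515 (86.7%) and 331 (55.7%) of 594 regions were past 2-fold.

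In the knockout the median height was 20.7 with DMSO, 22.6, 21.6 and 23.1 over the prexasertib course, and 18.4 with camptothecin. The median log2 changes were 0.10 (0.03 to 0.16), 0.13 (0.08 to 0.17), 0.15 (0.11 to 0.19) and −0.18 (−0.24 to −0.13), against 0.13, 0.11, 0.06 and −0.20 over the series. Past 2-fold were 0, 0, 1 and 0 of 146 regions, where the whole series had 0.372%, 0.346%, 0.277% and 0.0865%. Above DMSO were 98 (67.1%, background 67.3%), 99 (67.8%, background 64.4%) and 106 (72.6%, background 57.6%) regions over the prexasertib course, and 31 (21.2%, background 25.7%) with camptothecin. With camptothecin the median summit was thus higher than with DMSO in the parental clusters and lower in the knockout clusters, a contrast that was not tested.

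The size of the change differed with the background used, while the order of the parental libraries was the same. Over the local background the parental medians were 0.05, 0.31, 0.63 and 0.42, and the knockout ones 0.06, 0.06, 0.08 and −0.10. Over the genome-wide background the local background of the parental clusters itself went from 1.66 with DMSO to 1.78, 2.41 and 2.95 over the prexasertib course and 2.57 with camptothecin. The recovered pileup without division gave 0.08, 0.49, 1.22 and 0.83 in parental cells and 0.50, 0.34, 0.47 and −0.05 in the knockout. The genome-wide background, the measure of depth here, was 0.904, 0.811, 0.933 and 0.885 times the DMSO value in the parental treated libraries and 1.32, 1.16, 1.25 and 1.09 times in the knockout ones. Its part in the result was not tested. Against the parental 2 h list in place of DMSO, the median log2 change was 0.60 at 4 h, 1.12 at 6 h and 0.80 with camptothecin.

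The height changes of the clusters were close to those of the rest of the chromosome. In the rest the parental medians were 0.21, 0.83, 1.41 and 1.05, and the knockout ones 0.14, 0.12, 0.08 and −0.20. The cluster median was lower by 0.09 (interval −0.16 to −0.01) at parental 6 h, and over the local background it was higher by 0.03 (−0.03 to 0.08). Without cluster 2 or cluster 5 the parental interval included 0 (−0.13 to 0.02 and −0.20 to 0.01). In the knockout at 6 h the clusters exceeded the rest by 0.07 (0.02 to 0.12), and without cluster 5 by 0.05 (−0.03 to 0.11). The other 6 differences were between −0.04 and 0.02, with intervals that include 0. Since the clusters start from lower summits, regions were also split at the cluster median of the untreated height in the other genotype. At parental 6 h the difference was then −0.12 (−0.26 to 0.13) below that height and −0.08 (−0.18 to 0.01) above it, both with 0 in the interval.

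**Figure D4:**
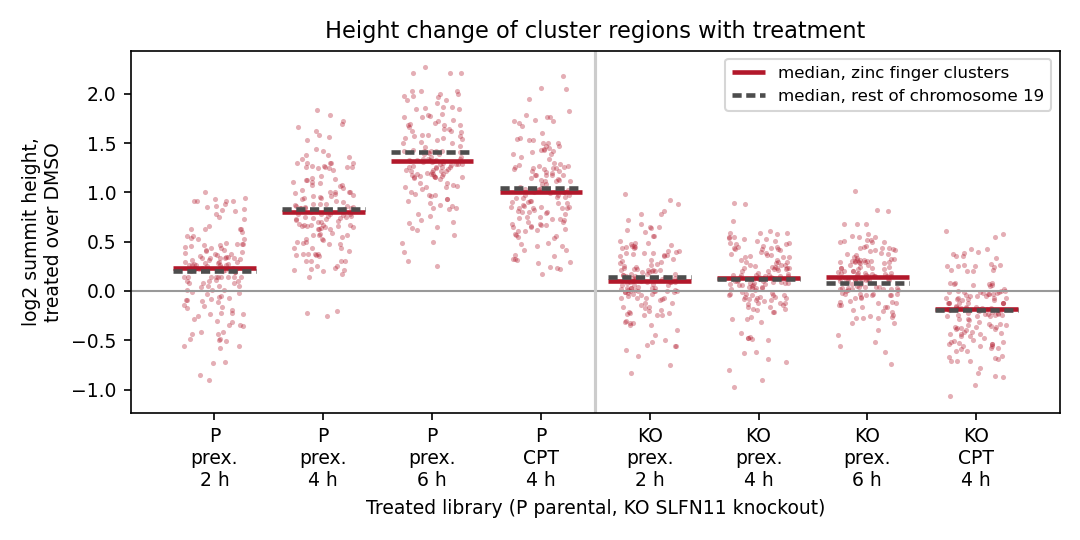
Log2 change in summit height against the DMSO library of the same genotype (y axis) for the 8 treated libraries (x axis, P parental, KO knockout). Points are the 146 cluster regions, solid bars their medians and dashed bars the medians of the 594 regions in the rest of chromosome 19, and the medians lie close together, at 1.32 and 1.41 after 6 h of prexasertib in parental cells and at −0.18 and −0.20 with camptothecin in the knockout.

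Within the clusters the 6 h change was of like size in each window, with medians of 1.32, 1.17, 1.31, 1.42 and 1.35 in clusters 1 to 5, but single regions spread widely, from 0.25 to 2.27. The largest was at chr19:19843316-19844255 in cluster 1, with heights of 8.57 with DMSO, 15.6, 20.4 and 41.3 over the prexasertib course and 28.4 with camptothecin in parental cells. In the knockout it was at 19.4 with DMSO, 16.7, 17.8, 21.1 and 10.9 in the same order. The parental DMSO value was below each of the others, and the parental 6 h value was above each of the others.

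Next came chr19:57831473-57832426 in cluster 5 and chr19:53192786-53194287, chr19:53426158-53427018 and chr19:53104059-53105140 in cluster 4. The first of these went from 9.79 with parental DMSO through 11.5 and 29.4 to 45.3 at 6 h, and lay between 14.4 and 19.4 in the knockout. All 5 regions began below the cluster median of 14.7, with parental DMSO heights from 6.12 to 9.79. The DMSO height is part of the change by which they were chosen.

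The smallest 6 h change was at chr19:24269765-24270381 in cluster 1, close to the centromere. In parental cells its height was 22 with DMSO, 15.6, 18.9 and 26.2 over the prexasertib course and 27.7 with camptothecin. Its knockout heights were 24.5, 28.6, 21.6, 27.6 and 14.9, so the genotypes overlapped. The region at chr19:37784304-37785889 in cluster 2 was nearly flat, between 27.5 and 34.6 in parental cells and between 25.7 and 32.8 in the knockout. With chr19:22816875-22817753 in cluster 1, which borders the longest gap, and chr19:37328549-37329541 and chr19:38085141-38086225 in cluster 2, these made up the 5 smallest changes.

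Gained regions, those called in a treated list and not with DMSO of the same genotype, outnumbered lost ones, the opposite case, in 7 of the 8 treated libraries. Parental DMSO left 67 cluster regions uncalled. Of these, 26 were gained at 2 h (38.8%, background 12.8% in the whole series), 40 at 4 h (59.7%, background 20.1%), 55 at 6 h (82.1%, background 43.2%) and 43 with camptothecin (64.2%, background 35.8%). Lost were 12 of 162 at 2 h (7.41%, background 17.7%), 4 at 4 h (2.47%, background 13.4%), 1 at 6 h (0.617%, background 9.08%) and 2 with camptothecin (1.23%, background 8.64%). The rest of the chromosome lost 12.6%, 4.77%, 0.98% and 2.38%, closer to the clusters than the whole series was. Clusters minus rest came to −5.2 (−9.3 to 0.3), −2.3 (−4.7 to 1.6), −0.4 (−1.5 to 2.5) and −1.1 (−2.8 to 2.1) points.

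The clusters gained a larger share of their uncalled regions than the rest of the chromosome did, where 9.86%, 28.6%, 65.6% and 46.8% of 720 were gained. The differences were 28.9 (17.9 to 41.1), 31.1 (18.7 to 42.5), 16.5 (5.2 to 24.7) and 17.4 (4.9 to 28.4) points. Without cluster 4 the camptothecin difference was 11.1 (−2.3 to 23.5). Against the parental 2 h list, where 53 cluster regions were uncalled, the gained shares were 49.1%, 79.2% and 56.6% at 4 h, 6 h and with camptothecin, against 30.2%, 67.0% and 48.4% in the rest. Of these 3 differences, the 6 h and camptothecin ones had intervals that include 0. All these shares count only regions that some list called, and the order depended on the measure. Called regions per Mb in the parental clusters were 14.5 with DMSO, 15.7, 17.7 and 19.3 over the prexasertib course and 18.1 with camptothecin. In the rest they were 14.9, 14.5, 18.5, 24.6 and 21.6, a larger rise than in the clusters except at 2 h.

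Many gained regions were already called in untreated knockout cells. Of the 67 regions uncalled with parental DMSO, 33 (49.3%) were called with knockout DMSO, against 30.4% in the rest of the chromosome and 28.9% in the whole series. Among the gained regions the numbers were 19 of 26 at 2 h (73.1%, against 56.7% in the whole series), 24 of 40 at 4 h (60%, against 55.6%), 29 of 55 at 6 h (52.7%, against 38.6%) and 25 of 43 with camptothecin (58.1%, against 43.9%). Among gained regions in the rest of the chromosome the shares were 70.4%, 59.7%, 38.6% and 46.3%, close to the clusters at 2 and 4 h. The 6 h share of the clusters was near that of all their 67 uncalled regions. Of the 55 at 6 h, 8 were in no knockout list (14.5%, against 30.3% in the rest and 30.9% in the whole series). Regions gained with both 6 h of prexasertib and camptothecin and in no knockout list made up 0.873% of the cluster regions. In the rest of the chromosome the share was 2.02% and in the whole series 1.21%. In the clusters they were chr19:52489929-52490258 in cluster 4 and chr19:37262301-37262630 in cluster 2. The former had heights of 6.79 at 4 h, 11.2 at 6 h and 7.61 with camptothecin, and the latter 10.5 at 6 h and 13.8 with camptothecin. Both were weak and 330 bp long.

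Knockout DMSO left 40 cluster regions uncalled. Gained were 15 at 2 h (37.5%, background 36.6%), 12 at 4 h (30.0%, background 25.2%), 21 at 6 h (52.5%, background 33.7%) and 11 with camptothecin (27.5%, background 15.8%). Lost were 5 of 189 at 2 h (2.65%, background 9.4%), 5 at 4 h (2.65%, background 13.5%), 4 at 6 h (2.12%, background 11.3%) and 15 with camptothecin (7.94%, background 19.2%). The rest of the chromosome lost 5.13%, 7.25%, 5.58% and 13.6%. The gained share exceeded that of the rest by 5.1 (−8.8 to 21.0) and 0.95 (−11.6 to 16.8) points at 2 and 4 h, and by 21.4 (5.9 to 36.4) and 12.8 (0.9 to 28.4) points at 6 h and with camptothecin. After thinning each list to a common background the 6 h excess was 12.7 (−1.7 to 28.5), and with peaks under a −log10 q of 10 left out the excesses were 12.2 (−1.7 to 25.8) and 8.77 (−0.88 to 21.6). The interval also included 0 at 6 h without cluster 5 (17 points), and with camptothecin without cluster 3 (6.5 points) or cluster 4 (8.15 points). Knockout camptothecin was the one treated library in which losses outnumbered gains in the clusters.

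**Figure D5:**
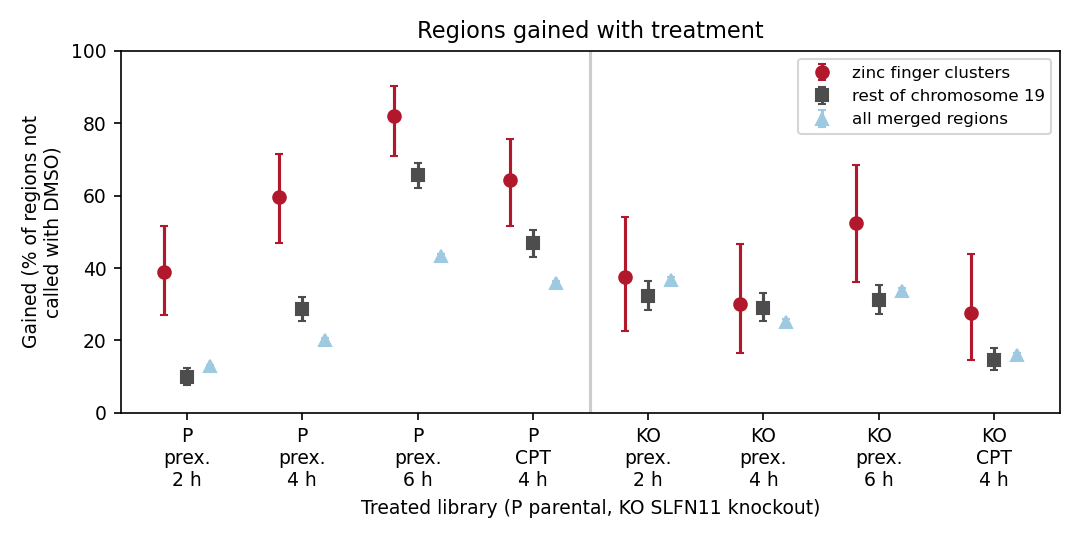
Share of regions uncalled with DMSO that were called in the treated library of the same genotype (y axis, percent), for the 8 treated libraries (x axis), in the zinc finger clusters (67 uncalled in parental and 40 in knockout cells), the rest of chromosome 19 and the whole series, with exact 95% intervals over regions. The parental clusters go from 38.8% at 2 h to 82.1% at 6 h, above the rest at each time.

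Peaks in the clusters were also wider with treatment in parental cells. The median peak width in the clusters was 510.5 bp with parental DMSO, 524.5, 552 and 611 bp over the prexasertib course and 606 bp with camptothecin, and in the knockout 586, 657, 640, 642 and 585 bp. Over regions called in both lists, the parental median log2 width change was 0.07, 0.21, 0.40 (0.34 to 0.49) and 0.35 (0.26 to 0.44). Wider than with DMSO were 88 of 150 regions at 2 h (58.7%, background 50.2%), 114 of 158 at 4 h (72.2%, background 61.5%), 139 of 161 at 6 h (86.3%, background 73.3%) and 131 of 160 with camptothecin (81.9%, background 73.5%). In the rest of the chromosome 54.3%, 75.8%, 90.1% and 86.4% were wider, above the cluster shares except at 2 h. Its median width changes were 0.03, 0.20, 0.40 and 0.36, close to those of the clusters, and the whole series had 0.00, 0.09, 0.23 and 0.22.

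In the knockout the median width change was 0.19, 0.11 and 0.19 over the prexasertib course and −0.04 (−0.07 to 0.01) with camptothecin, against 0.14, 0.11, 0.14 and −0.04 in the rest. Wider were 131 of 184 regions (71.2%, background 73.2%), 124 of 184 (67.4%, background 62%), 135 of 185 (73%, background 67.4%) and 77 of 174 (44.3%, background 45.2%). These shares were near those of the whole series.

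Regions called with DMSO in both lines were ranked by the smallest of their 4 log2 width changes in the treated parental libraries. The 5 with the largest such value lay in clusters 4, 1 and 5. The parental DMSO width is part of the change by which they were chosen. At chr19:52407763-52408549 the peak was 221 bp with DMSO and 524, 517, 760 and 646 bp in the 4 treated libraries, while the knockout widths ran from 481 to 606 bp. At chr19:23299612-23300467 it was 263 bp with DMSO and between 570 and 765 bp after treatment. At chr19:52642131-52643559 it was 381 bp and then between 797 and 1252 bp. In these 3 the knockout was already wide with DMSO (596, 653 and 1272 bp). The region at chr19:57998870-57999631 differed, with 199 bp in parental and 196 bp in knockout cells with DMSO and at least 416 bp in each treated library of both lines. Also in this set was chr19:52800035-52800949 in cluster 4.

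The widest merged region of each window was chr19:21785707-21787206 (1500 bp), chr19:37784304-37785889 (1586 bp), chr19:44506596-44507713 (1118 bp), chr19:53192786-53194287 (1502 bp) and chr19:58693495-58695141 (1647 bp). The first was called in 5 lists with heights of at most 7.45, and the others in all 10. The nearly flat region of cluster 2 among them was 595 bp wide with parental DMSO and between 955 and 1584 bp in the other lists, so that width differed where height hardly did.

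Between genotypes under the same treatment, summits over the genome-wide background were higher in the knockout with DMSO and at 2 h. They were higher in the parental line in the other conditions. The log2 ratio of parental to knockout height had a median of −0.49 with DMSO, −0.41 at 2 h, 0.23 at 4 h, 0.71 at 6 h and 0.76 with camptothecin. At 4 h that background was 1.33 in the parental and 1.85 in the knockout list, and the order without division by it was not examined. The median log2 width ratio was −0.21, −0.33, −0.16 (−0.20 to −0.12), −0.03 and 0.12 in the same order, so at 4 h knockout peaks were the wider ones. The parental summit was the higher one in 12 regions with DMSO (8.22%, background 12.5%), 21 at 2 h (14.4%, background 13.2%), 113 at 4 h (77.4%, background 61.2%), 143 at 6 h (97.9%, background 85.1%) and 143 with camptothecin (97.9%, background 90.8%). In the rest of the chromosome these shares were 5.05%, 10.3%, 71.0%, 96.1% and 97.0%. Its median height ratios were −0.51, −0.39, 0.17, 0.81 and 0.72. The shares that follow are of regions called in either list. Regions called in parental cells only numbered 6 with DMSO (3.08%, background 6.84%), 3 at 2 h (1.49%, background 3.5%), 10 at 4 h (4.85%, background 7.78%), 15 at 6 h (6.79%, background 16.9%) and 23 with camptothecin (11.1%, background 22.5%). Those called in the knockout only numbered 33 (16.9%, background 26.7%), 26 (12.9%, background 37.3%), 8 (3.88%, background 23.4%), 5 (2.26%, background 17.3%) and 5 (2.40%, background 10.7%).

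As a median over regions, the log2 change in parental cells minus that in the knockout was 0.08 (−0.01 to 0.17) at 2 h, 0.71 at 4 h, 1.18 (1.10 to 1.29) at 6 h and 1.18 (1.09 to 1.33) with camptothecin. The parental change was the larger one in 84 (57.5%, background 52.6%), 138 (94.5%, background 85.3%), 146 (100%, background 92.4%) and 145 (99.3%, background 95.5%) of 146 regions. In the rest of the chromosome the same medians were 0.10, 0.69, 1.34 and 1.25, and over the series 0.03, 0.51, 0.97 and 1.06. Over the local background the cluster medians were 0.03, 0.30, 0.55 and 0.54. Each of these values rests on 4 single libraries.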

How the data were processed

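ATAC-seq of 10 CCRF-CEM libraries was deposited as 1 narrowPeak list per library on hg19. MACS2 2.1.2 is the peak caller listed in the submitters' processing notes, beside BWA 0.7.17, Picard 2.9.2, SAMtools 1.8, Trimmomatic 0.39 and Trim Galore 0.6.2. Their parameters, any shift of reads for the transposase and any removal of duplicates are not given in the sources used here. Each deposited score was 10 times the −log10 q rounded down in nearly every line. The deposited fold is a ratio of summit pileup to local background within a library, with 1 added to both. The deposited −log10 p and −log10 q are values of single summits, with a minimum −log10 q just above 2 in each list.

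Peaks on chromosomes 1 to 22 and X were merged over the lists at an overlap of at least 1 bp. Whole pileups were solved from the deposited fold and −log10 p, and matched within 0.001 for 99.7% to 99.8% of the lines of each list. Read counts are unknown, so the smallest background, 1.33 to 2.10 per library, served as the measure of depth. Width was that of the longest peak of a list in a region. Shares have exact (Clopper-Pearson) intervals and medians order-statistic intervals, combined for differences. Calculations used Python 3.11.15, NumPy 2.4.6, SciPy 1.17.1 and pandas 2.3.3, and were tested on simulated data. Regions were named by rules on height, its 6 h change, width and calls. The members, windows and lists were chosen with earlier results of these data known. Alternatives covered depth, the q threshold, merging, window edges, each window left out, the background and the reference library. Promoters came from RefSeq, build GRCh38.p14, and were not joined to the peaks.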

Additional observations from a re-analysis of the deposited data

Results flagged for a closer look

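With camptothecin the clusters moved in opposite directions in the lines, by single libraries and with the difference not tested. The median log2 height change against DMSO was 1.01 in parental and −0.18 in knockout cells. For peak width it was 0.35 and −0.0442, where the knockout interval included 0. Regions gained minus regions lost came to 41 in parental and −4 in knockout cells, the latter from 11 gains and 15 losses. The opposite directions were not particular to the clusters. The rest of chromosome 19 had height medians of 1.05 and −0.20. Its gains and losses numbered 337 and 17 for the parental line, and 79 and 122 for the knockout. Over the whole series these counts were 7092 and 1357, and 2464 and 3827.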

How the results depend on the processing

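No paired analysis was possible because each group has 1 library and the labels give no replicate numbers. The excess of the clusters in the share called kept its sign in 99 of 99 alternatives. With peaks of a −log10 q of at least 10 it moved to 2.91 points with DMSO, 7.89 at 2 h, 13.7 at 4 h and 9.01 with camptothecin in parental cells. In the knockout it moved to 6.27 with DMSO, 4.59, 8.09 and 7.09 over the prexasertib course, and 8.83 with camptothecin. The cause was not tested. The excess in the share gained stayed within its interval in 73 of 75 alternatives and kept its sign in 72, with a lowest value of −3.34 points. It moved, at the same q threshold, to 10.3 points at parental 2 h and 16.9 points at knockout 4 h.

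For height, 97 of 99 alternatives stayed within the interval. Over the local background the difference reversed to 0.0307 at parental 6 h and moved to 0.0448 at knockout 2 h. For width, 66 of 67 did, and against the parental 2 h list the 4 h difference moved to −0.0885. Leaving out 1 window kept each value within its interval, though some intervals then included 0. Differences in height and width were small enough that their sign varied between alternatives, in 15 of 99 and 11 of 67. The list of the parental DMSO library enters each parental change. Depth was known only as a background pileup, and regions that were not called were not measured. The share gained as a measure, the 2 h list as reference, the split by untreated height and the heights over the lists without parental 4 h were added after seeing the data.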

Other observations

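Regions of the clusters missing from a single list other than parental DMSO numbered 6 in the parental 2 h prexasertib list, 2 in the knockout camptothecin list and 1 in the parental 4 h prexasertib list. In the rest of the chromosome the 2 h list was the one most often missing, with 41 of 90 such regions, against 30 for parental DMSO. The 15 cluster regions called in each list but parental DMSO, chosen for that pattern, were not all weak elsewhere. After 6 h of prexasertib their heights in parental cells ran from 14.4 to 36.7 with a median of 28.2, and 15 of 15 had a −log10 q of at least 10. In untreated knockout cells they ran from 7.53 to 22.6 with a median of 13.8, and 7 of 15 had such a q. With parental camptothecin 8 of the 15 were higher than in each of the 5 knockout lists, 5 of them in cluster 5. The highest of the 8 was chr19:58192965-58193927, at 32.5. Over the regions called in all 10 lists of the series, 90.8% were higher with parental than with knockout camptothecin. That share is against the knockout camptothecin list alone and over other regions, so it is not a background for the 8 of 15.

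Losses were rare in the treated parental clusters, as in the rest of the chromosome at 6 h (0.98%) and with camptothecin (2.38%). The cluster losses at 6 h or with camptothecin, named after their calls were seen, were chr19:58162563-58162812 and chr19:53696080-53696837. The former was called with parental DMSO only, at a height of 7.35. The latter had a height of 8.57 with parental DMSO, 12.8 at 4 h and 18.4 at 6 h, and was not called at 2 h, with camptothecin or with knockout DMSO. It was called in the 4 treated knockout lists at heights between 10 and 15.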
